A study of Brassica rapa and Brassica rapa x Brassica nigra and Brassica nigra with 18 samples.

Results

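A set of 101 B-genome genes was described whose levels in Brassica anthers were many times higher at mitosis than at meiosis, both in Brassica nigra (BB) and in its hybrid with Brassica rapa (AB). The members were chosen by measured values from 79644 genes of the count table, of which 35686 carried a B-genome identifier. A level is here the count of a gene per 1000000 counts on B genes in the same library, averaged over 3 libraries, and CPM are counts per 1000000 of all counts. A member had a level of at least 500 in BB at mitosis, a ratio of mitosis to meiosis of at least 32 in BB and of at least 8 in AB (0.5 was added to both levels), and at least 90% of its parental CPM in BB rather than in B. rapa (AA). Of the B genes, 211 reached the level, 105 of them also reached the BB ratio, all 105 reached the AB ratio, and 4 were then dropped by the BB share. The limit on the AB ratio thus removed 0 genes, and the lowest AB ratio among the members was 20.1. The levels in BB at mitosis and the changes between stages therefore describe the choice, and no test of them is read. AB was compared with BB by tests at each stage, on libraries that the choice also used.

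The study measured messenger RNA in 18 anther libraries, 3 for each combination of 3 kinds of plant and 2 stages. The plants were B. rapa with genomes AA, B. nigra with genomes BB, and a synthetic haploid hybrid, AB, labelled Brassica juncea, whose seed parent was B. rapa and whose pollen parent was B. nigra. The labelled stages are meiosis (sporogenesis, tissue labelled young anther) and mitosis (gametogenesis, tissue labelled anther), and the protocol names buds at meiosis and buds between the tetrad stage and maturity, so the later libraries may cover a span of development. The AB haploid has 1 copy of each chromosome, so no chromosome has an identical partner at meiosis, and pollen fertility of this hybrid is the subject the study names. Plant age is not given, nor whether replicate libraries derive from different plants, and the p-values therefore reflect variation between libraries that may be technical only.

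As background, spore mother cells in the anther divide by meiosis into haploid microspores, which then divide by mitosis into a vegetative cell and a generative cell and mature into pollen. Maturing pollen of flowering plants is known to store large amounts of a limited set of messages. Many of these are for enzymes of the cell wall, for surface proteins and for growth of the pollen tube. Meanwhile the tapetum, the layer that feeds the microspores, breaks down. None of the identifiers of the members was matched to a gene name (0 of 101, and 0 identifiers of the whole table, against 51589 reference genes of B. rapa). No function is therefore given for any member, the markers of pollen, tapetum, meiotic cells and anther wall could not be looked up, and sequences are not shown.

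The 101 members went from a trace to a large part of the B-genome message. In BB their summed share of the B-gene counts was 0.0478%, 0.0472% and 0.0477% in the 3 libraries at meiosis and 23.1%, 23.1% and 23.7% at mitosis. In AB it was 0.0343%, 0.0369% and 0.0360% at meiosis and 14.6%, 14.6% and 15.0% at mitosis. The libraries of a group lay close together, and at mitosis every BB library was above every AB library. The means were 23.3% ± 0.326 in BB and 14.7% ± 0.227 in AB (SD, n = 3 libraries here and below). Of all counts in the library the members took 19.5% ± 0.259 in BB and 6.45% ± 0.102 in AB at mitosis, where AB libraries divide their counts between both genomes. The rule asked for a high level in BB at mitosis, which favours a larger share in BB. In bulk anthers, differences in cell make-up, in the span of development sampled and in RNA per cell cannot be told apart.

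**Figure D1:**
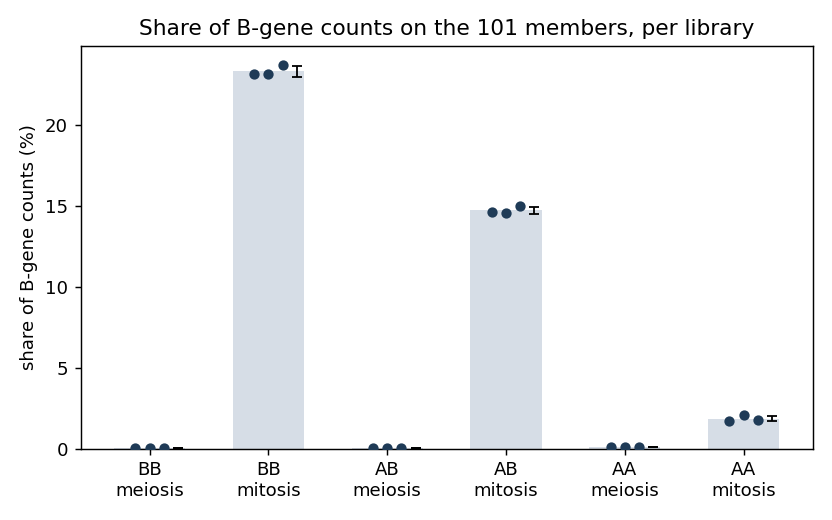
Share of the B-gene counts of each library that fell on the 101 members, in percent, for BB, AB and AA at meiosis and mitosis. Bars are group means, points are the 3 libraries and the error bar beside them is the SD; the BB libraries at mitosis lie between 23.1% and 23.7%, the AB libraries between 14.6% and 15.0%.

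Libraries held between 9782001 and 12161111 counts, of which 8161920 to 9283276 fell on B genes in BB and 4931480 to 5330117 in AB. A count of 0 allows up to 3 counts, which is a level of 0.323 to 0.608 in these libraries (a floor that takes in counting error alone). At mitosis the members were measured precisely, with a median coefficient of variation between libraries of 4.79% in BB and 3.72% in AB. At meiosis many members rested on a few reads: the mean count was under 10 for 68 members in BB and 70 in AB, and 18 members in each had 0 counts in all 3 libraries. The median level at meiosis was 0.187 in BB and 0.327 in AB, but the highest members reached 99.3 and 93.1. No library stood apart from its group in the members' summed share.

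Within the set, levels in BB at mitosis ran from 503 to 27045 with a median of 1224 and a middle 50% between 693 and 2304. In AB they ran from 144 to 10839 with a median of 749, and 35 members were under 500. The sum was concentrated on few members: 14 of the 101 made up 50% of it in BB and, separately ranked, 14 in AB. The 10 most abundant members of BB held 43.9% ± 0.306 of the members' counts in BB and 31.0% ± 0.323 in AB. Only 4 genes were among the 10 most abundant in both. The Spearman correlation between BB and AB levels at mitosis across the 101 members was 0.65, a description over genes that share libraries and depth.

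The most abundant member in BB was BjuB043854. Its levels in BB were 0.110, 0.564 and 0.215 at meiosis and 26435, 27056 and 27643 at mitosis. In AB its levels were 2.57, 1.96 and 1.75 at meiosis and 10451, 10438 and 10219 at mitosis. The gene was thus at a low level at meiosis in both, with 8 counts in all of BB, and at mitosis it was higher in every BB library than in any AB library. It also had the highest FPKM of the members in BB at mitosis, a scale that divides by coding length, at 18009.6 ± 393. Next on that scale came BjuB027151, with a coding length of 183 bases and 16208 ± 384 FPKM in BB at mitosis. Its levels at mitosis were 3595, 3603 and 3458 in BB and 853, 811 and 927 in AB, again with no overlap. The most abundant member in AB, singled out after its values were seen, was BjuB012396, with levels of 10572, 10881 and 11065 in AB against 5286, 5344 and 5379.6 in BB. Its coding length is 444 bases, and it had the highest FPKM of the members in AB. The leading message of the set was therefore a different gene in AB than in BB.

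The change between stages, which chose the members, spanned orders of magnitude. With a sum of under 3 counts over the 3 libraries of a group raised to 3, the ratio of mitosis to meiosis had a median of 4921 in BB and 1486 in AB; it was at least 1000 for 70 members in BB and for 61 in AB. Its lowest values were 40.4 in BB and 20.5 in AB. For the 18 members with 0 counts at meiosis in each group the ratio is a lower bound. A further 26 members in BB and 29 in AB had sums of 1 to 3 counts there. AB libraries held fewer B counts, so raising to 3 counts limits the ratio more in AB. The medians and numbers of members of BB and AB are therefore not compared on this scale. All 101 were called higher at mitosis in BB and all 101 in AB by edgeR, where 39.2% of the B genes tested were called higher in each; the choice of members fixes these counts. The members nearest to the limits had levels of 503 and 510 in BB at mitosis, against 499 and 497 just outside. The lowest BB ratios inside were 40.0 and 42.4 and the highest outside 28.4 and 28.3. The lowest BB shares inside were 90.3% and 92.1% and the highest outside 88.0% and 86.4%.

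**Figure D2:**
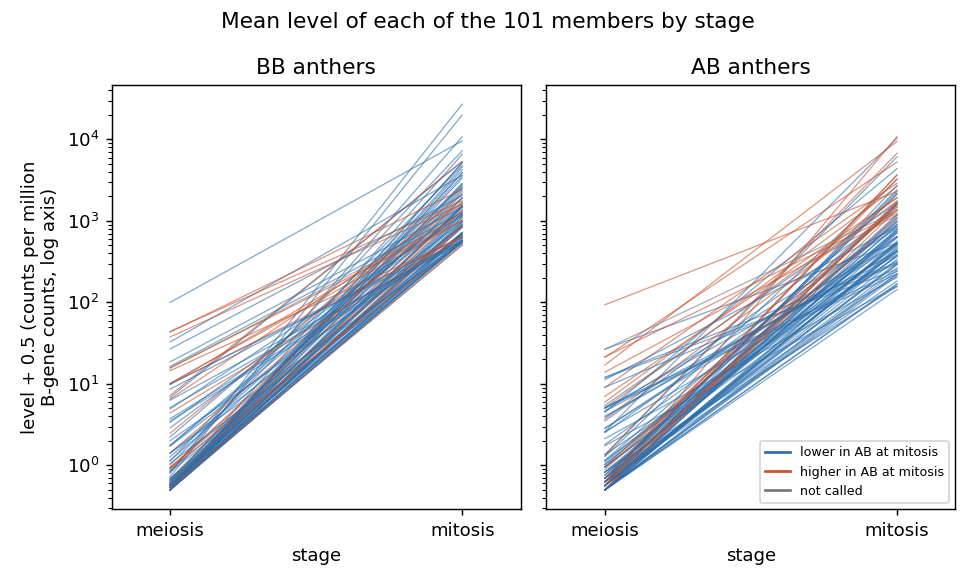
Mean level of each of the 101 members at meiosis and mitosis in BB (left) and AB (right), as counts per 1000000 B-gene counts plus 0.5 on a log axis; each line is 1 member, coloured by its edgeR call for AB against BB at mitosis. In BB all lines end above the limit of 500, while in AB they end between 144 and 10839, with a median of 1929 for the 22 members higher in AB and of 529.8 for the 78 lower ones.

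Among members with at least 10 counts per library on average at meiosis, the largest fitted stage changes in BB were those of BjuB037819 and BjuB030536. BjuB037819 had levels of 1.21, 1.69 and 0.862 at meiosis and 1978, 1857 and 1982 at mitosis in BB. In AB it had 1.97, 2.93 and 2.14 at meiosis and 661, 631 and 646 at mitosis. Its fitted log2 change was 10.71 (SE 0.09) in BB and 8.10 (SE 0.10) in AB. BjuB030536 reached 2612, 2411 and 2773 at mitosis in BB and 791, 839 and 802 in AB, from at most 4.69 in any library at meiosis. Its log2 change was 10.67 in BB and 7.60 in AB. Both genes were lower at mitosis and higher at meiosis in AB, with log2 differences at meiosis of 0.90 for BjuB037819 and 1.26 for BjuB030536. The 3 libraries of BB and of AB did not overlap at either stage. The largest fitted changes in AB were those of BjuB043854, with a log2 change of 12.27 (SE 0.09), and of BjuB017202, described below for its level at meiosis, with 10.11 (SE 0.09).

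The comparison of AB with BB at mitosis asked whether these genes reached the same level in the haploid hybrid, relative to the other B genes. Of the 101 members, 78 were lower in AB, 22 were higher and 1 was not called (edgeR's quasi-likelihood test, Benjamini-Hochberg adjusted p under 0.05). Over the 21204 B genes tested, 30.5% were called lower and 26.8% higher. The share of members called lower was 77.2% and that called higher 21.8%. Their median log2 difference, AB minus BB, was -1.35, with a middle 50% between -1.72 and -0.47, against a median of -0.02 over all B genes tested. By at least 2-fold, 62 members were lower and 9 higher, where 13.9% and 14.0% of all B genes tested were. By limma on log2(FPKM + 1), a scale on which AB values are lower because its totals hold both genomes, members called lower numbered 85 and higher 8 (median -2.14, against -0.64 over all B genes). The rule did not use this contrast, but it used the same libraries. It asked for a high level and a high stage ratio in BB, and both favour genes that are lower in AB.

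The pattern was set beside other choices of genes. When the level of 500 was asked of AB in place of BB, with the other criteria kept, 74 genes were chosen, 66 of them members. Of these 43 were lower and 30 higher in AB, with a median log2 difference of -0.79. Another 101 B genes were as abundant in BB at mitosis and mainly counted in BB but missed the stage ratio of 32; 64 of them were called lower and 28 higher (median -0.30). Below the level limit, the BB stage ratio and the BB share were reached by a further 608 B genes, of which 483 were called lower and 81 higher (median -1.0). The medians of both kinds of switched-on genes were below that of abundant genes without the switch, a difference that was not tested. Both kinds were chosen by a high stage ratio in BB, which uses the BB values at mitosis that enter the difference. That choice favours genes that are lower in AB, also where the level was asked of AB, so nothing is concluded from the order of the medians. When members were chosen on replicates 1 and 2, the 99 genes chosen had a median log2 ratio of AB to BB of -1.24 in replicate 3, with 77 below 0 and 22 above. The other 2 ways of leaving a replicate number out gave medians of -1.22 and -1.14. This removes only selection on the spread between libraries.

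**Figure D3:**
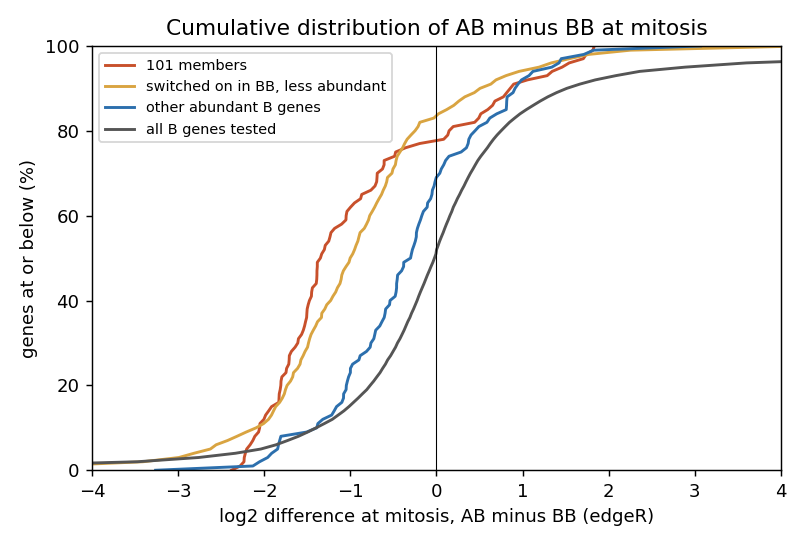
Cumulative distribution of the edgeR log2 difference between AB and BB at mitosis, with the percent of genes at or below each difference on the vertical axis, for the 101 members, 608 less abundant B genes switched on in BB, 101 other abundant B genes and all 21204 B genes tested; the horizontal axis is limited to -4 to 4. The medians are -1.35, -1.0, -0.30 and -0.02 in that order, and 10 of the 101 members lie within 0.5 of 0.

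The differences ran from -2.38 to 1.83. The 78 lower members had a median log2 difference of -1.50 and a middle 50% between -1.81 and -1.12. The 22 higher members had a median of 0.84 and a middle 50% between 0.54 and 1.43. Both ranges follow from the split by direction and are a description. Of the 101 members, 10 lay within 0.5 of 0 and 5 within 0.25, while the median standard error of a difference was 0.05. The 1 member not called, BjuB017193, had levels of 1206, 1126 and 1109.5 in BB and 1303, 1356 and 1319 in AB at mitosis (log2 difference 0.08, SE 0.05, edgeR adjusted p = 0.119). On the level scale, which has no TMM factors, 77 members had all 3 AB libraries below all 3 BB libraries, 23 had all above and 1 overlapped; over all B genes tested these shares were 27.4% and 33.7%. The TMM factors lowered the AB values at mitosis by 0.13 on the log2 scale relative to BB, so fitted differences are lower than the ratio of the printed levels by that amount.

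**Figure D4:**
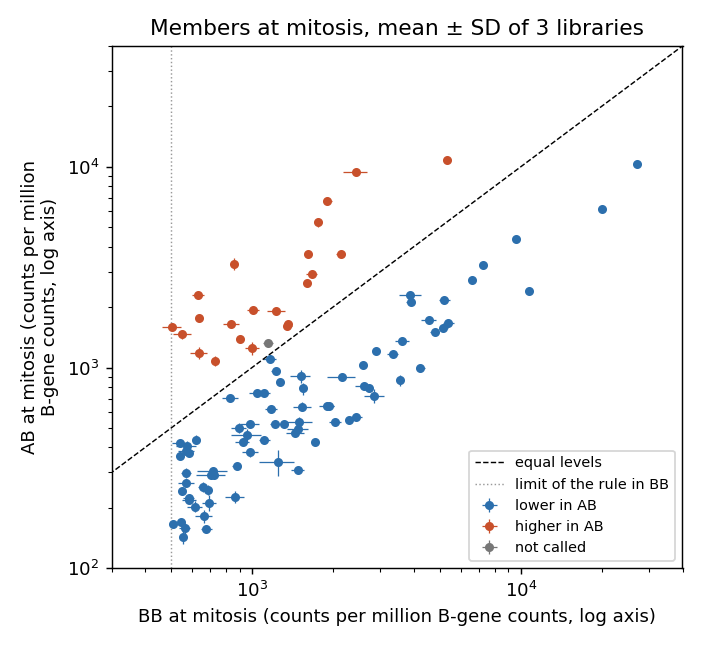
Level of each member at mitosis in BB (horizontal) and AB (vertical), as counts per 1000000 B-gene counts on log axes; points are means and bars SDs of 3 libraries, the dashed line marks equal levels and the dotted line the limit of 500 in BB. The 78 lower members form a band below the line of equal levels up to 27045 in BB, and the 22 higher members lie above it, with BB levels up to 5336.

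The members furthest down in AB at mitosis were BjuB026317 and BjuB005331. BjuB026317 had levels of 1391, 1550.1 and 1491 in BB and 302, 305 and 321 in AB, a log2 difference of -2.38 (SE 0.06, edgeR adjusted p = 9.78e-24). BjuB005331, the third most abundant member in BB, had 10855, 10750.4 and 10727 in BB and 2470.5, 2350.3 and 2433 in AB. Its log2 difference was -2.28 (SE 0.05, edgeR adjusted p = 2.09e-25). In both genes every AB library was far below every BB library. Both were picked as extremes of this contrast, among members chosen on the same libraries, so their p-values are a description. BjuB043854 and BjuB027151 also belonged to the lower group, with log2 differences of -1.51 (SE 0.04) and -2.16 (SE 0.06).

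The members furthest up were BjuB007035 and BjuB030510. BjuB007035 had levels of 2664, 2177 and 2455 in BB and 9290.1, 9619 and 9447 in AB at mitosis, a log2 difference of 1.83 (SE 0.06, edgeR adjusted p = 3.07e-21). It was 25th by level in BB and 3rd in AB. BjuB030510, with a coding length of 297 bases, had 863, 841 and 861 in BB and 3099.9, 3217 and 3544 in AB, a log2 difference of 1.82 (SE 0.06, edgeR adjusted p = 8.08e-20). It was 69th by level in BB and 10th in AB. The groups did not overlap in either gene. These p-values too belong to genes picked by the contrast itself and are a description.

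As groups, the lower members went from 20.1% ± 0.357 of the B-gene counts in BB to 7.65% ± 0.113 in AB at mitosis, and the higher members from 3.07% ± 0.0902 to 6.93% ± 0.166. The 22 higher members thus held nearly as much of the B-gene message in AB as the 78 lower ones; the groups are defined by this same difference, so the shares are a description. Higher members were found in each class of BB level. They were 9 of 41 members from 500 to 1000, 10 of 31 from 1000 to 2000, 2 of 19 from 2000 to 5000 and 1 of 10 above. Over all B genes tested, of any level, 26.8% were called higher, and a dependence on level was not tested. Coding lengths ran from 183 to 3333 bases with a median of 1119, against 1104 over all B genes tested. The higher members had a median coding length of 724.5 bases and the lower ones of 1189.5 bases. Of the 29 members under 600 bases, 11 were higher in AB and 18 lower, and of the 43 members of 1200 bases or more, 6 were higher and 37 lower. Over all B genes tested, 28.2% of those under 600 bases and 25.1% of those of 1200 bases or more were higher. The Spearman correlation of the log2 difference with coding length across the 101 members was -0.14, a description over genes.

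Some members carry consecutive numbers in their identifiers. There were 8 such runs with 18 members, 6 runs of 2 and 2 runs of 3. Of these 18 members, 16 were called lower in AB at mitosis and 2 higher, where 77.2% of all members were lower, so nothing particular to the runs is read from it. The files give no coordinates, so whether consecutive numbers are neighbours in the genome was not determined, and near-identical copies could share reads.

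At meiosis few members could be compared. Of the 101, 25 were called higher and 19 lower in AB than in BB and 57 were not called, where 31.9% and 31.6% of all B genes tested were called; the members' shares were 24.8% and 18.8%. In 63 members the mean count was under 10 in both groups. The balance of directions depended on the fit: with only the meiosis libraries in it, 11 were higher and 14 lower, and with library sizes from all genes, 18 were higher and 25 lower. Among the 38 members with at least 10 counts on average in either group, 14 were higher, 16 lower and 8 not called. The direction at meiosis did not fix that at mitosis. Of the 16 lower ones, 8 were lower and 8 higher at mitosis, and of the 14 higher ones, 9 were lower and 4 higher. Of all 101 members, 77.2% were lower and 21.8% higher at mitosis, and of all B genes tested 30.5% and 26.8%. Whether the directions at both stages are related was not tested.

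Members named here for meiosis were called and had a level of at least 10 in the higher group. They also had at least 10 counts per library on average in the lower group, and were the furthest apart of such members. Members with fewer counts can have larger fitted differences. The p-values of the named members, picked as extremes of this contrast, are a description. BjuB017202 had levels of 103, 95.6 and 98.9 at meiosis in BB but 2.37, 5.48 and 4.09 in AB, a log2 difference of -4.64 (SE 0.12, edgeR adjusted p = 1.8e-23). At mitosis it had 9491, 9674 and 9566 in BB and 4335, 4295 and 4533 in AB. BjuB041866 had a level of 32.2 ± 1.29 at meiosis in BB, with libraries between 30.9 and 33.5, and 3.16, 3.91 and 1.95 in AB. Its log2 difference at meiosis was -3.42 (SE 0.16, edgeR adjusted p = 2.55e-17). At mitosis it had 3444, 3583 and 3859 in BB and 1377, 1289 and 1398 in AB, a stage at which it also drew counts in B. rapa, as given further on. In both genes every AB library was below every BB library at both stages.

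BjuB027394 went the other way, with levels of 14.8, 14.1 and 13.1 at meiosis in BB and 90.8, 92.3 and 96.4 in AB, a log2 difference of 2.73 (SE 0.08, edgeR adjusted p = 3.58e-22). At mitosis it had 666, 613 and 611 in BB and 2199.9, 2315 and 2359 in AB. BjuB020179 had 3.23 to 4.40 at meiosis in BB and 14.2, 14.5 and 11.7 in AB, a log2 difference of 1.78 (SE 0.18, edgeR adjusted p = 6.84e-10). At mitosis it had 660.0, 579 and 659 in BB and 1264, 1189 and 1096 in AB. Both genes were higher in AB at both stages, with no overlap of the libraries.

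The rise from meiosis to mitosis was called smaller in AB than in BB for 41 members and larger for 15 by edgeR, against 23.6% and 24.2% of all B genes tested. This count depends on levels near 0 at meiosis and on the stage ratios of the rule, so it is a description; by limma on log2(FPKM + 1), 82 had a smaller rise. BjuB042234 showed a larger rise in AB from counts at both stages. Its levels at meiosis were 37.3, 37.7 and 36.6 in BB and 6.31, 4.89 and 5.26 in AB. At mitosis it had 1614, 1632 and 1554 in BB and 2658, 2624 and 2633 in AB, so the order of the genotypes turned between stages. The difference of its log2 changes was 3.36 (SE 0.11). The stage ratios of the rule bear on this value and the gene was picked by it, so it is a description.

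B. rapa has no B genome, so counts on the members in AA show how many reads from another genome were assigned to them. The rule limits the mean of both stages, not the change between them. The members together had 42.8 ± 2.90 CPM in AA at meiosis and 891 ± 83.0 at mitosis, when AB had 64453 and BB 194538. The AA sum at mitosis was thus 1.38% of that in AB, and 37.0% of it fell on 1 member, BjuB041866, with 3361, 4656 and 3020 counts in the AA libraries at mitosis and 0, 3 and 5 at meiosis. More members had higher values in AA at mitosis than at meiosis (63) than the reverse (31), and 7 had 0 counts in all 6 libraries. At 10 CPM or more stood 13 members at mitosis and 1 at meiosis.

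In 9 members the AA value at mitosis was 10% or more of the AB value, up to 55.5% in BjuB041866. AB libraries divide their counts between both genomes, so these percentages do not give the part of an AB count that came from A copies. They bear on how far an AB count is a B-genome count, and all 9 members were called lower in AB. Of the other 92 members, 69 were lower and 22 higher. Among the 22 higher members the AA value was at most 3.53% of the AB value. Of the 40 members with at most 0.1 CPM in AA at mitosis, 26 were lower and 14 higher. Over all 101 members 77.2% were lower and 21.8% higher, and over all B genes tested 30.5% and 26.8%. Whether the calls depend on the AA value was not tested. How reads of the A copies in AB were divided between A and B identifiers was not tested.

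**Figure D5:**
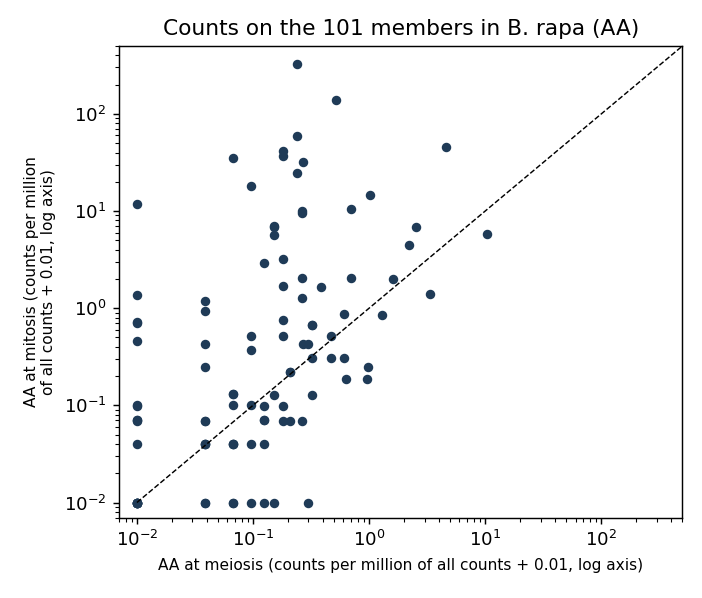
Counts on each of the 101 members in B. rapa (AA), as CPM plus 0.01 on log axes, at meiosis (horizontal) and mitosis (vertical), means of 3 libraries; the dashed line marks equal values. Of the members, 13 reach 10 CPM at mitosis and 1 does at meiosis, and the highest point is BjuB041866.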

How the data were processed

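The deposited tables hold raw counts and, in the other table, FPKM values, with genes in rows and libraries in columns. The submitters' processing notes name HTSeq 0.6.0, HISAT2 2.1.0, Bowtie 1.0.1 and TopHat2. The task of each tool was not given in the sources used here, nor was the genome build, annotation or strandedness. Deposited FPKM values were counts over a length and the library total (largest relative deviation 5.32e-08), and since 99.9% of these lengths divide by 3, they are called coding lengths. Where an A and a B copy are nearly identical, a read may have been given to either. A repeated column for replicate 1 of AA at mitosis held the same values and was left out (1 column). Samples were grouped by title.

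Counts of all B genes in the 12 BB and AB libraries were fitted with edgeR 4.0.16 in R 4.3.3 (quasi-likelihood F test on 4 group means, library sizes and TMM factors from B genes, filter on low counts by group), and Benjamini-Hochberg adjusted p-values were taken over the 21204 genes tested. All 101 members passed the filter, as the rule on their level ensures. Standard errors come from the estimate and its F statistic. The pipeline was tested on simulated data. Alternatives were DESeq2 1.42.0, limma 3.58.1 on log2(FPKM + 1), other scalings, filters, samples and limits of the rule, the replicate number as a block, and leaving out each library. Without TMM factors, and with the level limit set on AB, are alternatives chosen after seeing the data. The members, lists and tests were chosen with earlier results of these data known.

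At most 2 identifiers per direction and quantity are named, by the largest difference among called members with a level of at least 10 in the higher group and at least 10 counts per library on average in the lower group; for FPKM, the highest 2.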

Additional observations from a re-analysis of the deposited data

Results flagged for a closer look

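The change from meiosis to mitosis was called different between AB and BB for 41 members with a smaller rise in AB and 15 with a larger one (edgeR, test of the difference of both stage changes, Benjamini-Hochberg adjusted p under 0.05). Of all B genes tested, 23.6% were called with a smaller rise and 24.2% with a larger one. The counts of members lean on levels near 0 at meiosis and on the stage ratios of the rule, so they are a description. Without the second AB library at meiosis 32 members had a smaller rise and 14 a larger one.

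Among members with at least 10 counts per library on average in every group, the rise was larger in AB for BjuB017202, by 3.39 on the log2 scale, and for BjuB042234, by 3.36. Both had lower levels in AB than in BB at meiosis in all 3 libraries. The rise was smaller in AB for BjuB030536, with a log2 difference of -3.07, and for BjuB037819, with -2.61, and both had higher levels in AB at meiosis in all 3 libraries. The groups of 3 libraries were too small for a search for single outlying libraries.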

How the results depend on the processing

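More members were lower than higher in AB at mitosis under every alternative run. Each alternative kept a high stage ratio in BB in the choice of members, which favours genes that are lower in AB. The shared direction is therefore a description. Members called lower numbered between 77 and 78 with DESeq2, relative log expression or upper-quartile factors, no TMM factors, no filter, only the groups of the contrast, library sizes from all genes and the replicate block, and members called higher between 19 and 23; with the replicate block they were 78 and 22. The block left 25 higher and 19 lower at meiosis and 41 with a smaller and 15 with a larger rise, the counts found without it. Same-numbered libraries did not deviate together (correlations across genes between -0.04 and 0.02, 0 of 18 pairs over 0.1). A shared origin with an effect below the noise between libraries could go unseen, so whether the numbers mark pairs is not known. With limma on log2(FPKM + 1), where AB values are lower because the library totals hold both genomes (median over all B genes -0.64), 85 were lower and 8 higher at mitosis, 29 lower and 9 higher at meiosis, and 82 had a smaller rise. Asking for 2-fold left 9 higher, and the fit of meiosis libraries alone called 11 higher there. A level limit of 250 gave 174 members with 143 lower, and a limit of 1000 gave 60 with 46 lower and 13 higher. With the limit of 500 on AB, 43 were lower and 30 higher, with a median log2 difference of -0.79. Limits of 4 or 16 on the AB ratio, or none, gave the same 101 members. Of all counts rather than B counts, the members took 0.0401% in BB and 0.0156% in AB at meiosis, and 19.5% and 6.45% at mitosis. Without the 10 most abundant members of BB they took 0.0362% in BB at meiosis and 13.1% in BB and 10.2% in AB at mitosis.

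Without each library in turn, 78 members were lower and 20 to 23 higher at mitosis, 19 to 21 lower and 18 to 28 higher at meiosis, and 32 to 41 had a smaller and 14 to 15 a larger rise. The number of members was then between 99 and 104. Depth limits the values at meiosis, where 63 members had under 10 counts on average in both groups.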
